A study of Mus musculus with 10 samples.

Results

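Of the 54532 genes in the expression table of these mouse lungs, 189 were abundant autosomal long non-coding RNAs. They were chosen by an annotated type of lincRNA (intergenic), antisense or processed transcript, a place on chromosomes 1 to 19, a gene length of at least 500 bases, and a mean level of at least 2 FPKM over the 10 lungs. FPKM is a count of sequenced fragments scaled to the length of the gene and the depth of the library. The table held 6988 genes of these types, chromosomes and lengths, of which 1746 had a mean of at least 0.1 FPKM and 2552 were listed at 0 in every lung. The members comprised 79 lincRNAs, 55 antisense genes and 55 processed transcripts, with at least 1 on each of the 19 autosomes. The level chose the members, so their abundance is given as a description. In 167 members the mean was at least 2 FPKM in both groups, in 9 it was so in the IPF group only, and in 13 in the sham group only. Just inside the limit were 4930429F24Rik and 9130015G15Rik, both at 2.01 FPKM. Just outside it were 2900093K20Rik at 1.99 FPKM and Gm17586 at 1.97 FPKM.

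All mice were wild type, labelled WT, and of the C57BL/6J strain per the methods of the study. At postnatal day 7, the IPF group (increased pulmonary flow, n = 5) received an aortocaval fistula, a puncture between the abdominal aorta and the inferior vena cava that sends extra blood through the lungs. The sham group (n = 5) underwent laparotomy without the puncture. Whole lungs were taken at postnatal day 30. In bulk lung RNA, fewer cells of a type and less RNA per cell cannot be told apart.

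Each lung had between 15483046 and 19026843 reads on genes, as recovered from FPKM and gene length. The members took 0.398% to 0.467% of these reads in IPF lungs and 0.429% to 0.577% in sham lungs, with the highest share in sham replicate 1. Sham replicate 1 and IPF replicate 3 stood somewhat apart, with mean Pearson correlations with the other lungs across members of 0.897 and 0.889, against 0.911 to 0.933 for the others. The lung markers Sftpc, Sftpb, Ager, Scgb1a1, Pecam1 and Cldn5 were abundant in all 10 lungs, with summed levels of 19958 to 44412 FPKM. Of these 6, Cldn5, a tight junction gene of endothelium, passed the test, at 450.5 ± 20.7 FPKM in IPF lungs and 308.5 ± 42.8 FPKM in sham lungs (SD, n = 5 each). Xist, the RNA of the inactive X chromosome, had a mean of 34.1 FPKM in IPF lungs and 0.0493 FPKM in sham lungs, and the Y-linked genes examined were at 0 in all IPF lungs. The methods name pups of both sexes, but in these libraries sex and surgery cannot be told apart, and this holds for every difference between the groups given here. Summed B cell markers were 31.7 to 47.8 FPKM in IPF lungs and 17.1 to 28.0 FPKM in sham lungs, with all 5 markers past the test. Summed neutrophil markers were 52.6 to 300.4 FPKM in IPF lungs and 15.2 to 72.4 FPKM in sham lungs, with none of 6 past the limma test and 5 at an unadjusted p under 0.05. Summed circadian clock genes were 90.8 to 162 FPKM in IPF lungs and 292 to 346 FPKM in sham lungs. Of these 14 genes, 10 fell, the activators Arntl, Npas2 and Clock rose, and Cry1 did not pass. The highest neutrophil and clock sums among IPF lungs were both in IPF replicate 5, and without it the IPF ranges were 52.6 to 74.0 FPKM and 90.8 to 108 FPKM. The part of sex, of other cell types and of the clock in the results on members was not tested.

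Long non-coding RNAs are long transcripts without a long conserved reading frame. Some act in the nucleus as scaffolds of nuclear bodies, some host small RNAs in their exons or introns, and many arise from the opposite strand of a protein-coding gene or from its promoter. An antisense or divergent transcript can follow the activity of the gene beside it. The 86 members that overlapped a protein-coding gene were therefore also set beside that gene.

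The label was checked against a later annotation, GENCODE M39, by Ensembl identifier. It called 167 members lncRNA, 10 protein coding and 3 transcribed pseudogenes, and did not list 9. The 10 protein-coding genes were Ifi30, Cct6a, Tmem250-ps, 1810058I24Rik, Tug1, Tmem134, Zswim6, Ptpmt1, D930016D06Rik and Trerf1. Ifi30, a lysosomal thiol reductase, and Cct6a, a subunit of the chaperonin that folds actin and tubulin, are thus not long non-coding RNAs in that annotation. None of these 10 passed the limma test described below, beside 5.85% of all genes tested. Of the 10, 1 had an unadjusted p under 0.05, beside 19.5% of all genes tested. The log2 fold changes of the 10 ran from -0.11 to 0.21.

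The sequences of the genes that the results turn on most are shown first. Mir22hg hosts the precursor of miR-22 in its transcript, and the 2 mature forms lie at chr11:75463734-75463755 and chr11:75463772-75463793 on the plus strand (RefSeq, GRCm38.p6). The capitals mark the seed, bases 2 to 8, which pairs with target messenger RNAs.
mmu-miR-22-5p: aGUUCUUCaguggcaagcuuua
mmu-miR-22-3p: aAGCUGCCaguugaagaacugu
The 2 seeds differ, so the arms of this hairpin fall into separate seed families.

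A RefSeq promoter, 250 bases before to 50 bases after the start, was matched for 105 members, within 1000 bases of the start in the table for 92 of them, and for 7 of the 11 members that passed the test. Those of AW112010, Mir22hg and Gm20559, the 3 most abundant of the 11, and of Gm10687, which starts 16 bases from Mcam, are printed 5′ to 3′ on the strand of the gene (GRCm38.p6). Capitals mark matches on either strand to the letters of a CCAAT box, to a GC box (GGGCGG) or to a TATA box (TATAAA).
AW112010 promoter, chr19:11050517-11050816, minus strand: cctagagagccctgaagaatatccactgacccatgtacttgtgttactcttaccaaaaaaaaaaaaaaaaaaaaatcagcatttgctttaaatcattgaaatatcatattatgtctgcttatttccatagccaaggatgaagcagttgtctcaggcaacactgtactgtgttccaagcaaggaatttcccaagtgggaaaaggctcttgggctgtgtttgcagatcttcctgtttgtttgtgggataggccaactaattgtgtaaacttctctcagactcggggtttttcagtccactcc
Mir22hg promoter, chr11:75461289-75461588, plus strand: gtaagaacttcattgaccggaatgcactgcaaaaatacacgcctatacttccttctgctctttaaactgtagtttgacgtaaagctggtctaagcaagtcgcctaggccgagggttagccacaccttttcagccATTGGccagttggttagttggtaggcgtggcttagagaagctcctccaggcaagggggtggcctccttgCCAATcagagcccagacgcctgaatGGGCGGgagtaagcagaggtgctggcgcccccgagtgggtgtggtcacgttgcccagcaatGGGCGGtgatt
Gm20559 promoter, chr6:3346089-3346388, minus strand: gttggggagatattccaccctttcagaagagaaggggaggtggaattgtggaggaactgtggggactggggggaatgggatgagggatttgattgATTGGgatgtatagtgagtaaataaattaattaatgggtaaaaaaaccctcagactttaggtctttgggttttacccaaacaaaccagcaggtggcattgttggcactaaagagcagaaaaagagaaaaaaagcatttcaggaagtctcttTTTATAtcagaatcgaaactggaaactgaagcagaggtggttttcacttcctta
Gm10687 promoter, chr9:44134436-44134735, minus strand: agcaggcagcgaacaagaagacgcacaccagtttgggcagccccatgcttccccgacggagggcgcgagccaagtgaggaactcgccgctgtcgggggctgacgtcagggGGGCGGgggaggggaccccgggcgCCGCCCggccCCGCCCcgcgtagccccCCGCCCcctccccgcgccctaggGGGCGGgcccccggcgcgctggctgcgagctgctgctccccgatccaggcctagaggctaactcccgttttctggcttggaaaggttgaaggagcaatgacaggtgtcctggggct
The promoter of AW112010 held none of these 3 motifs and was 40.0% G and C. That of Mir22hg held 2 CCAAT and 2 GC boxes, that of Gm20559 1 CCAAT and 1 TATA box, and that of Gm10687 5 GC boxes with 72.0% G and C. Over the 92 nearby promoters, 7 of them of genes that GENCODE M39 calls protein coding, 56.5% held a GC box, against 35.9% of all 27025 RefSeq promoters, 39.1% against 37.9% a CCAAT box, and 13.04% against 14.2% a TATA box. The median G and C content was 60.3% for these members and 52.7% for all promoters. For members the RefSeq promoter nearest to the annotated start was taken, and for all genes the first one listed, at any level of expression. The 2 sets thus differ in how promoters were chosen, and their shares were not tested against each other. The other 4 motifs were searched on both strands. The E-box (CACGTG) was present in 5.43% of these member promoters and 7.24% of all promoters, the D-box (TTATGNAA) in 1.09% and 3.52%, the nuclear receptor site (AGGTCA) in 12.0% and 16.0%, and the core of an interferon response element (TTTC repeated after a gap of 2 bases) in 1.09% and 3.49%. None of the 7 promoters of members past the test held any of these 4, which says only that these letters are not in these windows.

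**Figure D1:**
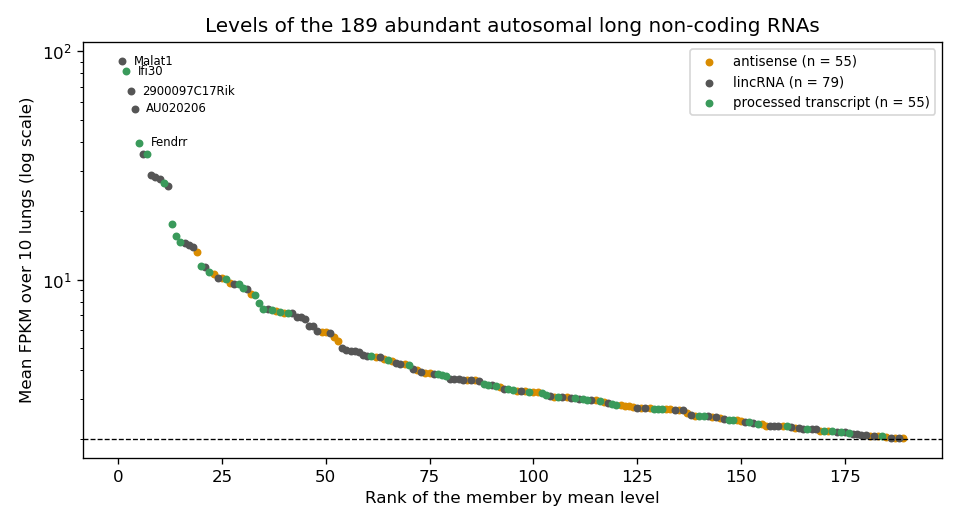
Mean FPKM over 10 lungs (log axis) of the 189 members, ranked by level and coloured by annotated type, with the limit of 2 FPKM dashed. Levels fell from 90.3 FPKM for Malat1 to 2.01 FPKM, and 77 members lay between 2 and 3 FPKM.

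Levels were uneven. Only 4 members exceeded 50 FPKM and 26 exceeded 10 FPKM, and the 10 most abundant held 36.9% of the summed FPKM of all members. That sum was 1237 to 1354 FPKM in IPF lungs and 1264 to 1469 FPKM in sham lungs, so the groups overlapped.

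Malat1, a nuclear speckle RNA, was the most abundant member. Its levels in IPF replicates 1 to 5 were 106, 77.9, 82.0, 53.6 and 60.4 FPKM, and in sham replicates 1 to 5 they were 191, 75.1, 81.3, 90.1 and 85.3 FPKM. The groups overlapped, and sham replicate 1 lay far above all other lungs. The log2 fold change, IPF against sham, was -0.41 (95% interval -0.97 to 0.16) and did not pass (limma adjusted p = 0.429). Without sham replicate 1 it was -0.16 (limma adjusted p = 0.693).

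Neat1, the scaffold RNA of paraspeckles and a neighbour of Malat1 on chromosome 19, measured 23.4, 29.5, 27.4, 21.4 and 17.7 FPKM in IPF lungs. In sham lungs it measured 43.4, 33.0, 33.8, 26.9 and 24.7 FPKM. The highest sham value was again in replicate 1 and the groups overlapped. The log2 fold change was -0.43 (95% interval -0.80 to -0.06), with a limma adjusted p of 0.174.

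Fendrr is transcribed divergently from Foxf1, a transcription factor of lung mesenchyme and endothelium. It measured 37.0, 32.9, 35.9, 30.1 and 40.0 FPKM in IPF lungs and 54.8, 44.8, 44.5, 46.1 and 32.3 FPKM in sham lungs. Sham replicate 5 fell within the IPF range while the other 4 sham lungs lay above it. The log2 fold change was -0.32 ± 0.13 (SE, n = 5 and 5) and did not pass (limma adjusted p = 0.176), but without sham replicate 5 it was -0.44 and passed (limma adjusted p = 0.0313). Foxf1 itself had a log2 fold change of 0.01.

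AW112010, the only one of the 10 past the test, is described with the other calls. 2900097C17Rik, the mouse Norad gene, whose RNA binds Pumilio proteins, had means of 65.5 ± 1.80 FPKM in IPF lungs and 68.1 ± 5.39 FPKM in sham lungs (SD, n = 5 each), and its log2 fold change of -0.05 had a 95% interval of -0.19 to 0.08. Bvht (Braveheart), known for a role in commitment to the cardiac lineage, had means of 29.2 ± 2.70 and 28.0 ± 2.47 FPKM. AU020206 had means of 59.6 ± 4.63 and 52.1 ± 4.82 FPKM (limma adjusted p = 0.186). Ifi30, 1700020I14Rik and Gm49172 had log2 fold changes of -0.10, 0.11 and -0.07 and did not pass.

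**Figure D2:**
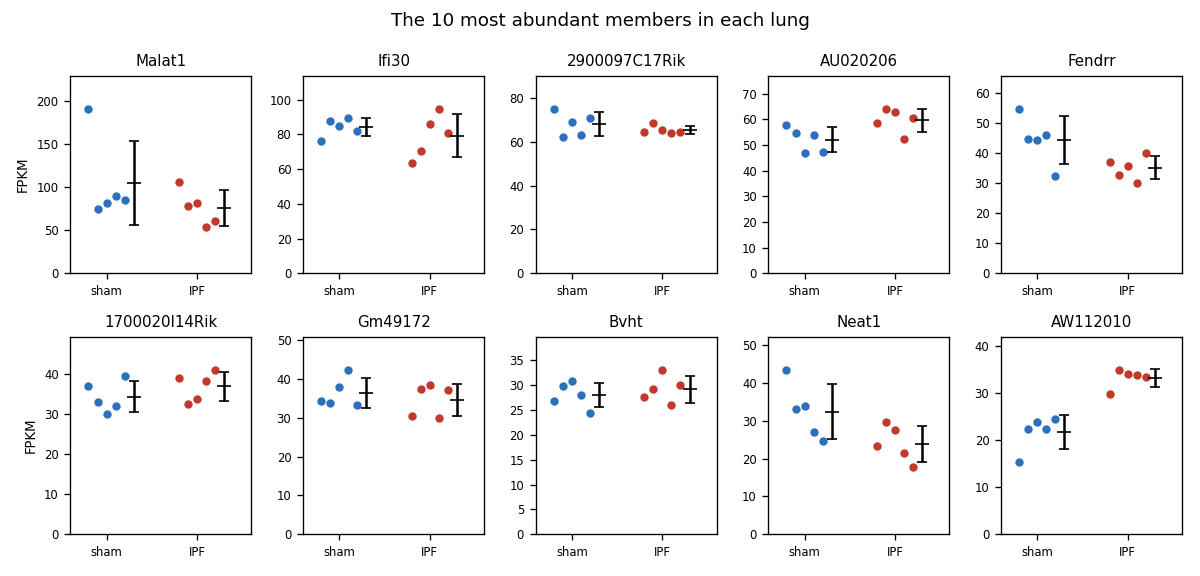
FPKM in each lung for the 10 most abundant members; points are lungs in replicate order (blue sham, red IPF), and black bars are the mean ± SD of 5 lungs. Malat1 in sham replicate 1 stands at 191 FPKM, and AW112010 is the panel in which the groups separate.

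To ask whether increased flow changed these RNAs, all 20448 genes with a mean of at least 0.1 FPKM were fitted with limma on log2(FPKM + 0.1), a scale that understates changes of low genes. A gene passed at a Benjamini-Hochberg adjusted p under 0.05 over all genes tested. Of the 189 members, 11 passed (5.82%), against 5.85% of all genes tested and 8.51% of autosomal protein-coding genes at 2 FPKM or more. Of the 11, 5 met the level limit through their higher group only, so nothing is read from this share. Where both group means had to reach 2 FPKM, 6 of 167 members passed (3.59%), against 8.17% of autosomal protein-coding genes under the same limit. Leaving out 1 lung moved the share of all 189 members from 3.70% (7 members, without IPF replicate 4, 3.66% of all genes) to 9.52% (18 members, without IPF replicate 5, 7.92% of all genes). Higher in IPF lungs were 6 members (3.17%, background 3.71%, and 5.37% of those protein-coding genes) and lower were 5 (2.65%, background 2.14%, and 3.14%). Adding the limit of the study, an absolute log2 fold change above 1, left Gm27252, Gm44421 and Gm6213, or 1.59% of members (background 1.14%). All 3 met the level limit only through their higher group, so nothing is read from this share, and the count was 0 where both groups had to reach 2 FPKM. At an unadjusted p under 0.05 there were 49 members (25.9%, background 19.5%, and 25.1% of autosomal protein-coding genes at 2 FPKM or more).

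The fitted change was above 0 in 103 members (54.5%, background 50.4%), and the median log2 fold change was 0.03 over members and 0.00 over all genes tested. In 173 members the absolute log2 fold change was under 0.5, and in 176 the 95% interval lay within -1 and 1, but in only 84 did it lie within -0.5 and 0.5. The median within-group SD on the log2 scale was 0.25 for members and 0.14 for autosomal protein-coding genes at 2 FPKM or more. Values of all 5 IPF lungs lay on one side of all 5 sham lungs in 13 members (6.88%, background 7.29%, and 10.2% of those protein-coding genes), including 10 of the 11 that passed.

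**Figure D3:**
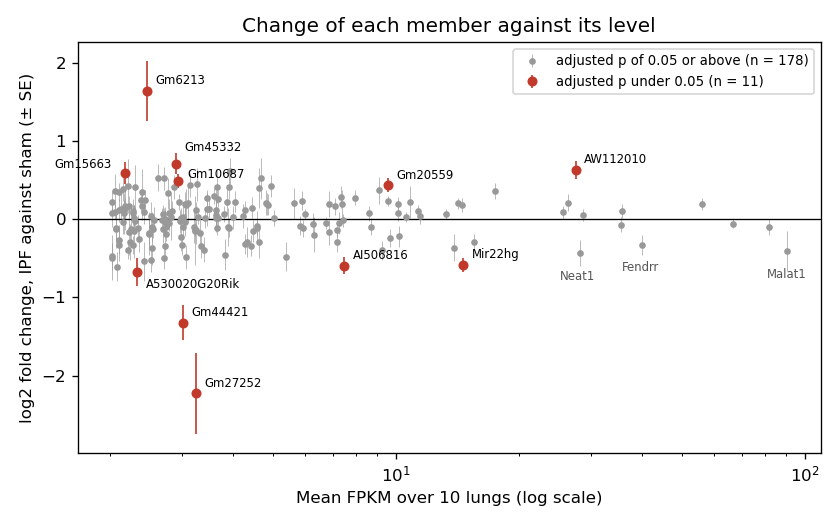
Log2 fold change of each member, IPF against sham (± SE from limma, 5 lungs per group), against its mean FPKM over 10 lungs (log axis). The 11 members past the test are red, and the 3 largest changes (Gm27252, Gm44421 and Gm6213) are in members with means of about 2.46 to 3.23 FPKM.

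AW112010 (ENSMUSG00000075010, chr19:11047617-11050566, minus strand) is induced in immune cells by interferons and bacterial products, and its transcript has been found to be translated. It measured 29.9, 35.0, 34.1, 34.0 and 33.4 FPKM in IPF lungs and 15.4, 22.4, 23.9, 22.5 and 24.5 FPKM in sham lungs. All IPF lungs lay above all sham lungs, and sham replicate 1 was the lowest. It rose by a log2 fold change of 0.63 ± 0.11 (SE, limma adjusted p = 0.00874). Summed T cell markers were 13.1 to 17.5 FPKM in IPF lungs and 7.95 to 13.4 FPKM in sham lungs, also lowest in sham replicate 1, with none of the 6 markers at 0 and 1 past the test. Among sham lungs, the lung, neutrophil and erythroid (red blood cell) marker sums were also lowest in sham replicate 1. Summed B cell markers, all 5 past the test, were lowest in sham replicate 4, at 17.1 FPKM. Summed ciliated cell markers were lowest in sham replicate 5. The part of immune cell number in the result for AW112010 was not tested.

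Gm20559 (ENSMUSG00000106734, chr6:3333194-3346128, minus strand) lies 53444 bases from the start of Samd9l, an interferon-inducible gene. It measured 10.8, 12.9, 10.7, 11.3 and 9.41 FPKM in IPF lungs and 8.07, 7.49, 7.84, 9.28 and 7.83 FPKM in sham lungs. The lowest IPF lung lay just above the highest sham lung. It rose by 0.44 ± 0.09 on the log2 scale (SE, limma adjusted p = 0.0141), and Samd9l also rose, by 0.33 ± 0.06 (SE, limma adjusted p = 0.00670).

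Gm10687 (ENSMUSG00000097617, chr9:44122186-44134485, minus strand) starts 16 bases from Mcam, a cell adhesion gene of vascular cells on the opposite strand. It measured 3.78, 3.62, 3.47, 3.43 and 2.87 FPKM in IPF lungs and 2.36, 2.73, 2.29, 2.27 and 2.41 FPKM in sham lungs, with no overlap. It rose by 0.49 ± 0.09 on the log2 scale (SE, limma adjusted p = 0.0109). Mcam was far more abundant, at 114.5 ± 3.33 FPKM in IPF lungs and 109.3 ± 8.24 FPKM in sham lungs (SD, n = 5 each), and its log2 fold change was 0.07 (limma adjusted p = 0.591).

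Gm45332 (ENSMUSG00000110380, chr8:92152096-92158266, minus strand) is intergenic, and the nearest protein-coding start was that of the homeobox gene Irx5, 199359 bases away. It measured 3.41, 3.63, 3.77, 4.67 and 2.67 FPKM in IPF lungs and 1.99, 2.06, 1.95, 2.46 and 2.32 FPKM in sham lungs. The groups did not overlap, and the log2 fold change was 0.71 ± 0.14 (SE, limma adjusted p = 0.0115).

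Gm6213 (chr8:39297980-39368268, plus strand) measured 2.95, 4.98, 4.31, 3.87 and 2.303 FPKM in IPF lungs and 0.666, 1.84, 0.390, 1.88 and 1.44 FPKM in sham lungs. These rested on 26 to 53 reads in IPF lungs and 4 to 21 reads in sham lungs. The groups did not overlap, and the log2 fold change was 1.64 ± 0.38 (SE, limma adjusted p = 0.0294). Gm15663 (chr10:105573953-105583874, plus strand) starts 498 bases from Tmtc2 on the opposite strand. It measured 3.44, 2.21, 2.18, 2.80 and 2.55 FPKM in IPF lungs and 1.51, 1.44, 1.70, 1.87 and 1.97 FPKM in sham lungs, from 124 to 197 reads and 84 to 105 reads. All IPF lungs lay above all sham lungs, with a log2 fold change of 0.60 ± 0.14 (SE, limma adjusted p = 0.03003), while Tmtc2 had 0.32 (limma adjusted p = 0.0581).

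Among the lower members, Mir22hg (ENSMUSG00000085148, chr11:75461539-75466676, plus strand), the host of the miR-22 sequences printed above, was the most abundant. It measured 12.6, 11.2, 9.76, 10.8 and 14.2 FPKM in IPF lungs and 18.3, 18.5, 16.4, 17.8 and 16.4 FPKM in sham lungs. Every IPF lung lay below every sham lung. It fell by 0.58 ± 0.09 on the log2 scale (SE, limma adjusted p = 0.00490). The level of mature miR-22 was not analysed here.

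AI506816 (ENSMUSG00000105987, chr5:23698296-23712667, minus strand) measured 4.92, 6.68, 5.75, 7.41 and 5.09 FPKM in IPF lungs and 9.02, 8.30, 8.79, 8.85 and 9.82 FPKM in sham lungs. The groups did not overlap. It fell by 0.59 ± 0.11 on the log2 scale (SE, limma adjusted p = 0.00968), while Srpk2, a splicing kinase whose start lies 28050 bases away, stood at -0.10 on that scale (limma adjusted p = 0.480).

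Gm44421 (ENSMUSG00000107451, chr6:90478466-90479686, plus strand) measured 2.26, 1.67, 1.08, 1.17 and 2.45 FPKM in IPF lungs and 4.92, 4.38, 4.74, 4.23 and 3.22 FPKM in sham lungs. All IPF lungs lay below all sham lungs, and the log2 fold change was -1.32 ± 0.22 (SE, limma adjusted p = 0.00602). The nearest protein-coding start, 7961 bases away on the same strand, was that of the folate enzyme gene Aldh1l1, whose log2 fold change was 0.40 (limma adjusted p = 0.0683).

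Gm27252 (ENSMUSG00000098708, chr7:63896533-63899698, plus strand) had the largest fitted change among members. It measured 1.72, 0.502, 0.221, 1.22 and 3.23 FPKM in IPF lungs and 6.26, 4.43, 5.47, 5.53 and 3.75 FPKM in sham lungs. The groups did not overlap, but the IPF lungs spread widely. The IPF values rested on 21, 6, 3, 16 and 41 reads and the sham values on 74, 57, 63, 66 and 41 reads. The log2 fold change was -2.23 ± 0.52 (SE, 95% interval -3.37 to -1.09, limma adjusted p = 0.0291).

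A530020G20Rik (chr3:121531619-121536206, plus strand), which starts 785 bases from the choline transporter-like gene Slc44a3, was the member past the test whose groups overlapped. It measured 1.42, 1.97, 1.99, 1.38 and 2.07 FPKM in IPF lungs and 3.59, 3.31, 2.77, 2.83 and 1.95 FPKM in sham lungs. Sham replicate 5 lay within the IPF range. It fell by 0.67 ± 0.18 on the log2 scale (SE, limma adjusted p = 0.0468).

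AW112010, Mir22hg, Gm20559, AI506816, Gm44421, Gm10687 and Gm45332 passed in all 20 alternative fits. Gm6213 and Gm15663 each passed in 13 of 20, Gm27252 in 11 and A530020G20Rik in 9. Leaving out 1 lung ended the calls of Gm27252 (limma adjusted p up to 0.0808, without sham replicate 1), Gm6213 (up to 0.0825, without sham replicate 1), Gm15663 (up to 0.0804, without IPF replicate 4) and A530020G20Rik (up to 0.117, without IPF replicate 4).

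**Figure D4:**
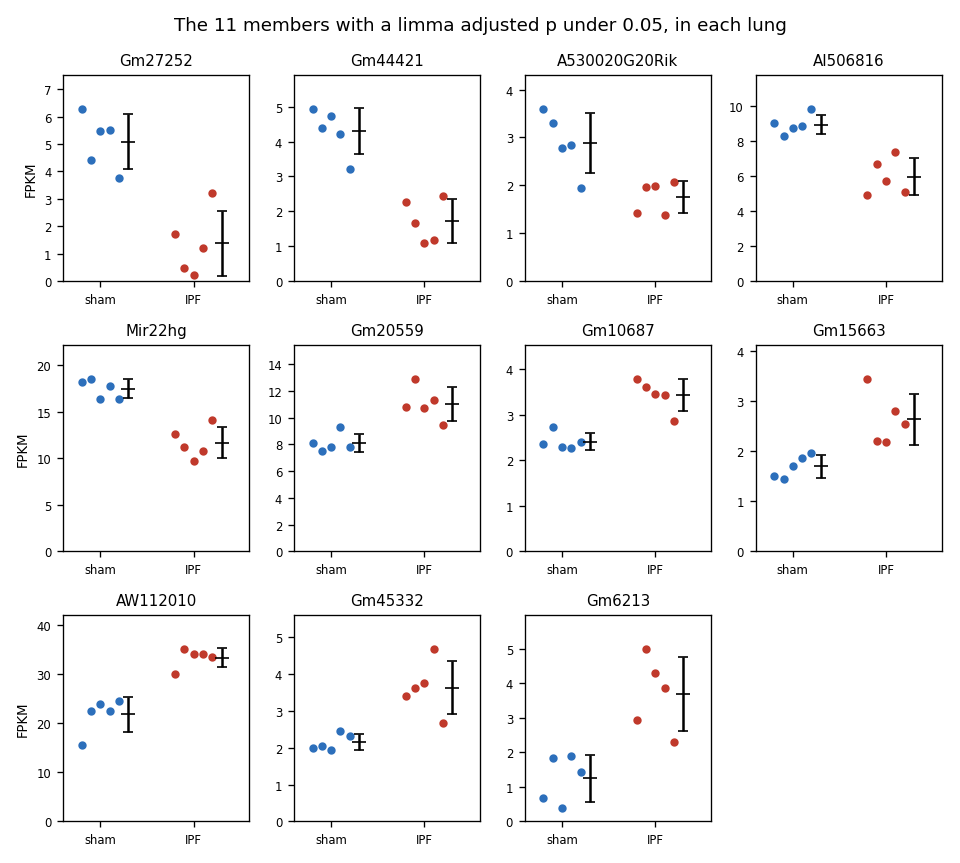
FPKM in each lung of the 11 members with a limma adjusted p under 0.05, ordered by log2 fold change; points are lungs in replicate order (blue sham, red IPF), black bars are the mean ± SD of 5 lungs, and each axis starts at 0. In every panel but A530020G20Rik the groups do not overlap.

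Members were then set beside the protein-coding genes they overlapped by start and end. There were 86 members in 102 such pairs, 92 on opposite strands and 10 on the same strand, and 97 pairs had both genes tested. Whether the counting used strand is not given in the sources used here, so reads of an antisense member and of its partner may not be told apart where exons overlap. In GENCODE M39, 10 of 96 pairs shared no exon bases, and in 6 more than 50% of the exon bases of the member lay in exons of the partner. The partner had the higher mean level in 71 pairs.

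The change of the ratio of member to partner was fitted with limma over all 1367 such pairs in the table. No member pair passed at an adjusted p under 0.05, against a background of 0.0%. At an unadjusted p under 0.05 there were 7 of 97 member pairs (7.22%) and 11.6% of all pairs. The median standard error of the ratio change was 0.23, and in 83 pairs the 95% interval lay within -1 and 1 on the log2 scale. With a pseudocount of 1 in place of 0.1, 5 member pairs passed (5.15%, background 3.07%), the first 5 pairs described next. Both genes had the same sign of change in 59 of 97 member pairs (60.8%) and in 57.0% of all pairs, where both genes were measured in the same lungs.

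Gm27252 lies within the span of Klf13, a Krüppel-like transcription factor gene, on the opposite strand, and the exons of the pair share no bases in GENCODE M39. Klf13 measured 26.3, 19.5, 23.4, 24.5 and 31.1 FPKM in IPF lungs and 40.2, 29.6, 33.7, 32.3 and 35.5 FPKM in sham lungs. Only IPF replicate 5 exceeded the lowest sham lung. Klf13 fell by 0.47 ± 0.12 on the log2 scale (SE, limma adjusted p = 0.0415), which made this the only pair with both genes past the test. The ratio of Gm27252 to Klf13 had a log2 change of -1.76 ± 0.47 (SE, limma adjusted p = 0.272).

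C920021L13Rik overlaps Ciart, a circadian repressor of transcription. It measured 3.98, 2.82, 2.01, 2.21 and 2.57 FPKM in IPF lungs and 3.16, 2.77, 2.68, 2.38 and 2.67 FPKM in sham lungs. Ciart measured 4.26, 5.01, 3.70, 2.99 and 4.50 FPKM in IPF lungs and 10.1, 8.93, 7.63, 7.67 and 5.19 FPKM in sham lungs. Values of the groups overlapped for the member and not for Ciart. The log2 fold change was -0.04 for the member (limma adjusted p = 0.926) and -0.92 for Ciart (limma adjusted p = 0.0125). The estimate for their ratio was 0.88 ± 0.24 (SE, limma adjusted p = 0.272) and did not pass.

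In the next 2 pairs the member had a positive and the partner a negative estimate. Gm17396 measured 3.80, 4.02, 2.27, 3.18 and 2.90 FPKM in IPF lungs and 2.46, 1.95, 2.18, 1.92 and 2.42 FPKM in sham lungs, with an overlap at IPF replicate 3. The change of Gm17396 was 0.52 on the log2 scale (limma adjusted p = 0.0675), and it passed in 2 of 20 alternative fits, without IPF replicate 3 (limma adjusted p = 0.0173) and with a filter of 1 FPKM (limma adjusted p = 0.0486). Rbms3, an RNA-binding protein gene, had a log2 fold change of -0.17. The estimate for the ratio of Gm17396 to Rbms3 was 0.70 ± 0.22 (SE, limma adjusted p = 0.311) and did not pass. Lppos measured 2.24, 2.32, 3.33, 2.23 and 2.12 FPKM in IPF lungs and 1.44, 2.33, 1.59, 1.91 and 1.96 FPKM in sham lungs. Its groups overlapped. Lpp, a focal adhesion gene, stood at -0.37 (log2 fold change, limma adjusted p = 0.0636). The estimate for the ratio of Lppos to Lpp was 0.75 ± 0.24 (SE, limma adjusted p = 0.311) and did not pass.

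Mir22hg overlaps Tlcd2 on the same strand. Tlcd2 measured 2.28, 2.70, 2.68, 3.00 and 2.48 FPKM in IPF lungs and 1.57, 2.85, 1.83, 2.88 and 2.91 FPKM in sham lungs, so that its groups overlapped while those of Mir22hg did not. Tlcd2 had a log2 fold change of 0.16 ± 0.18 (SE, limma adjusted p = 0.676). The estimate for the ratio of Mir22hg to Tlcd2 was -0.74 ± 0.26 (SE, limma adjusted p = 0.378) and did not pass. For 2810002D19Rik and Ttc17, the estimate for the ratio was 0.57 ± 0.22 (SE, limma adjusted p = 0.401) and did not pass, with 0.27 for the member and -0.30 for Ttc17.

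Of 96 distinct partners tested, 8 passed the test of single genes (8.33%), near the 8.51% of autosomal protein-coding genes at 2 FPKM or more (5.85% of all genes). Beside Klf13 and Ciart these were Itga1, Sorbs3, Ppp3cc, Itga9, Ctdspl and Nav2. Gm49417 overlaps both Sorbs3, which encodes the adhesion protein vinexin, and Ppp3cc, a calcineurin subunit gene. It measured 2.21, 1.58, 2.63, 1.57 and 2.34 FPKM in IPF lungs and 3.08, 3.49, 2.69, 2.68 and 2.83 FPKM in sham lungs, with no overlap, but did not pass (log2 fold change -0.52, limma adjusted p = 0.0736). Sorbs3 fell by 0.66 (limma adjusted p = 0.00725) and Ppp3cc fell by 0.39 (limma adjusted p = 0.0380). Gm2415 overlaps Itga9, an integrin gene, and Ctdspl, a phosphatase-like gene. Its log2 fold change was -0.49 (limma adjusted p = 0.0635), beside -0.43 for Itga9 (limma adjusted p = 0.0120) and -0.45 for Ctdspl (limma adjusted p = 0.0118). In these 4 pairs the estimate for the ratio lay between -0.13 and 0.14, with adjusted p from 0.891 to 0.975 in limma.

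**Figure D5:**
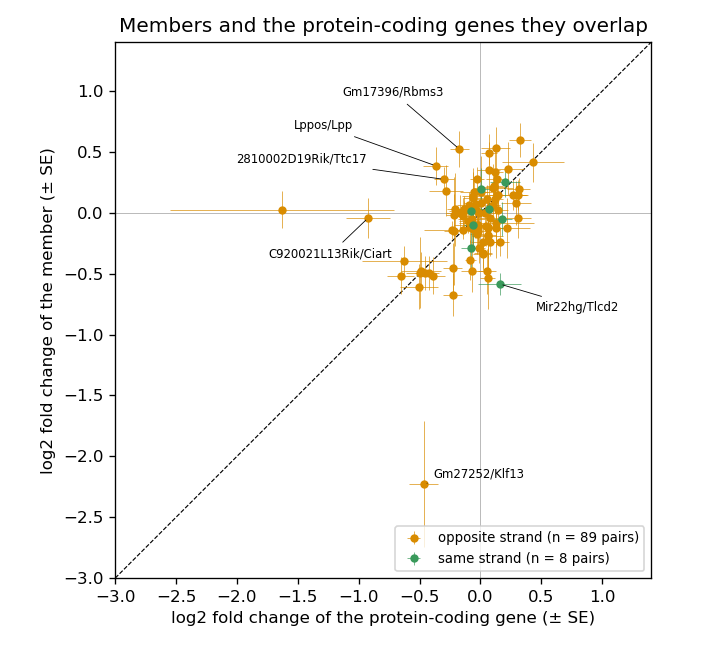
Log2 fold change, IPF against sham, in 97 pairs of a member (vertical axis) and a protein-coding gene it overlaps (horizontal axis), both ± SE from limma; the dashed line marks equal change. Gm27252/Klf13 lies farthest below the line, and the 6 pairs with the smallest p of the ratio are named.

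Members were also grouped by their start. There were 58 that started within 1000 bases of a protein-coding start on the opposite strand, of which 2 were higher and 1 was lower in IPF lungs (5.17% in all, beside 5.85% of all genes tested). The neighbouring gene passed in 2 of the 58 (3.45%), beside 8.51% of autosomal protein-coding genes at 2 FPKM or more, and these shares were not tested against each other. By type, 1 of 55 antisense members rose and 1 fell (3.64% in all), 3 of 79 lincRNAs rose and 1 fell (5.06%), and 2 of 55 processed transcripts rose and 3 fell (9.09%), beside 3.71% of all genes tested higher and 2.14% lower. Types were not tested against each other.

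Lists of RNAs with known roles held 52 distinct genes that were tested, of which 6 passed (11.5%, background 5.85%). The lists were chosen with earlier results of these data known, so nothing is read from this share. The 2 members among the 6 were AW112010 and Mir22hg. The other 4 were Ptgs2os2 (log2 fold change -0.80, limma adjusted p = 0.00647), Peg13 (-0.30, limma adjusted p = 0.0232), and Snhg11 (-0.46, limma adjusted p = 0.0417) and Gm13889 (1.37, limma adjusted p = 0.000344), which the table annotates as protein coding. Of 20 small nucleolar RNA host genes, 9 were members, none of which passed in limma or had an unadjusted p under 0.05. The median estimate of the 9 was 0.18, and 8 were positive, beside 50.4% of all genes tested and 54.5% of all members. These hosts carry small nucleolar RNAs, which guide ribosomal RNA modification, in their introns. Among tested hosts that are no members, Snhg4, Snhg11, Snhg14 and Snhg17 had negative estimates. Snhg10, Snhg15 and Epb41l4aos had positive ones. Snhg18 measured 14.4, 17.6, 15.3, 14.7 and 14.99 FPKM in IPF lungs and 13.02, 15.8, 12.6, 14.9 and 11.8 FPKM in sham lungs, with overlapping groups. Its log2 fold change was 0.18 (limma adjusted p = 0.289), beside 0.22 for Snhg1, 0.19 for Snhg6 and -0.13 for Snhg5.

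Of 16 microRNA host genes, Mir22hg was the only member. Of 8 nuclear-retained RNAs, Malat1, Neat1 and Tug1 were members and none passed in limma, with only Neat1 at an unadjusted p under 0.05 and Tug1 at 0.07 (95% interval -0.06 to 0.20). Of 9 RNAs tied to p53 or growth arrest, Neat1, 2900097C17Rik and Gas5 were members and none passed in limma, again with only Neat1 at an unadjusted p under 0.05 and with Gas5 at 0.08. AW112010 was the only member among 11 immune response RNAs, a list on which Ptgs2os2 fell. None of 11 genes listed as imprinted was a member. Gm26917, listed because part of its sequence resembles ribosomal RNA, measured 5.69 ± 1.05 FPKM in IPF lungs and 5.96 ± 0.51 FPKM in sham lungs (SD, n = 5 each), with a log2 fold change of -0.08.

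A list of 17 genes was labelled as lung, developmental or antisense RNAs. Members on it were Fendrr, Hotairm1 and Tbx3os1, and none of them passed in limma. Fendrr (lower) and Hotairm1 (higher) had an unadjusted p under 0.05, as had 19.5% of all genes tested. The gene of this list that passed was Gm13889, which is no member and is annotated as protein coding. Limma voom on recovered reads also called none of the members on the snoRNA host, nuclear-retained, p53, ribosomal and developmental lists. Hotairm1 measured 5.39, 4.04, 3.30, 4.604 and 5.02 FPKM in IPF lungs and 2.60, 2.88, 4.44, 3.16 and 3.58 FPKM in sham lungs. The groups overlapped, and its log2 fold change was 0.42 ± 0.16 (SE, limma adjusted p = 0.173). Tbx3os1, antisense to Tbx3, had a log2 fold change of 0.00 ± 0.14 (SE).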

How the data were processed

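RNA of whole lung was sequenced in 5 IPF and 5 sham samples, and each sample is called a lung here. The authors deposited 1 table of FPKM values for 54532 genes, with positions, strand, length and type. The methods name HISAT2, StringTie and GRCm39, whereas the labels name Bowtie 0.12.2 and GRCm38, and the positions in the table fit GRCm38 (last gene end on chromosome 1, 195323493). Labels and methods also name different library kits. Groups were taken from the sample labels. The labels do not state that samples of a group are separate animals, so p-values measure the spread between these samples.

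Multiplying the deposited FPKM by gene length and by a scale factor for each library, found from the spacing of low values, gave whole reads for 100% of values (tolerance 0.05), with a median of 112 reads per member and lung. Tests used limma 3.58.1 (R 4.3.3) with a variance trend on log2(FPKM + 0.1), over genes with a mean of at least 0.1 FPKM, with two-sided p-values and Benjamini-Hochberg adjustment. This log-scale test was used because the values are FPKM. Ratios to overlapping protein-coding genes were fitted the same way without the trend. Intervals are 95% limma intervals. The fits were tested on simulated data.

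Named members were the 10 most abundant, up to 8 in each direction past the test, up to 4 of each list by moderated t (all of the ribosomal list), the 6 pairs with the smallest ratio p and pairs with both genes past the test. Gm49417 and Gm2415 were chosen after their values were seen. The members and lists were chosen with earlier results of these data known. Alternatives covered pseudocount, filter, scaling, block, trend, voom on recovered reads, level limit and each lung left out. RefSeq matched 133 members by name or identifier.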

Additional observations from a re-analysis of the deposited data

Results flagged for a closer look

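In 4 of 66 groups of 5 lungs, over 33 named members, 1 lung stood apart from the other 4 by Dixon's 95% limit, and chance alone would give about 1 in 20. Malat1 in sham replicate 1 was at 191 FPKM, with the other sham lungs at 75.1 to 90.1 FPKM. AW112010 in the same lung was at 15.4 FPKM, with the others at 22.4 to 24.5 FPKM. 2900097C17Rik in IPF replicate 2 was at 68.6 FPKM, with the others at 64.2 to 65.3 FPKM. Lppos in IPF replicate 3 was at 3.33 FPKM, with the others at 2.12 to 2.32 FPKM.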

How the results depend on the processing

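Of the 11 members past the test, 7 passed with no filter on low values, while 6 of 167 passed where both group means had to reach 2 FPKM (3.59%, against 8.17% of autosomal protein-coding genes), 18 of 378 at a limit of 1 FPKM (4.76%, against 8.38%) and 4 of 54 at a limit of 5 FPKM (7.41%, against 8.89%). Leaving out each lung gave 7 (without IPF replicate 4) to 18 (without IPF replicate 5). Past the limits of the study the count was 1 with no filter, 1 with no variance trend, 0 with 2 FPKM in both groups, 6 at 1 FPKM and 0 at 5 FPKM, and 1 to 3 with each lung left out (1 without IPF replicate 2, IPF replicate 4 or sham replicate 1). With a pseudocount of 1, 5 ratios passed. At the main pseudocount of 0.1, none passed with all lungs or with any lung left out. Leaving out a lung was not tried at a pseudocount of 1. Estimates near 0 changed sign when 1 lung was left out. The log2 fold change then ran from -0.011 (without IPF replicate 2) to 0.139 for Gas5, from -0.157 to 0.0062 (without IPF replicate 5) for Gm26917, from -0.184 to 0.0536 for C920021L13Rik, whose sign turned without IPF replicate 3, IPF replicate 4 or sham replicate 1, and from -0.115 to 0.0636 for Tbx3os1, whose sign turned without IPF replicate 2, 3 or 4 or sham replicate 1, 2 or 5. The cause was not tested. Same-numbered lungs did not deviate together (correlations -0.02 to 0.10), and the replicate block gave 11 members, 8 of them among the main 11, with 2 past the limits of the study and 0 ratios. Low read counts limit Gm27252 and Gm6213, down to 3 and 4 reads in a lung.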
